A study of Homo sapiens with 12 samples.

Results

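Interferon-stimulated genes are genes that cells switch on when they detect virus or when interferon, a secreted alarm protein, binds its receptor. SKBR-3, a breast carcinoma line with amplified HER2 and no estrogen receptor, was profiled by RNAseq, and 46 such genes were examined. They were chosen by symbol from general knowledge of the pathway, at a time when other results of these data were known. All 46 were among the 20531 genes listed in each sample, and 37 of them reached 10 counts in 1 or more of the 12 samples and could be tested. The cells were first transfected with a non-targeting (NT) siRNA control pool or with a FOXA1 siRNA pool, which lowers the forkhead factor FOXA1, and then given DMSO, the solvent, or 300 nM lapatinib, which blocks the kinases HER2 and EGFR, for 24 h. The 4 groups are thus NT siRNA in DMSO, NT siRNA in lapatinib, FOXA1 siRNA in DMSO and FOXA1 siRNA in lapatinib, with 3 replicates each. The labels give 48 h of siRNA before the drug, and the methods give 24 h between transfection and drug. The study used this experiment to ask whether FOXA1 is needed for the transcriptional response to HER2 inhibition. The question asked here is how a set of genes that double-stranded RNA and interferon can both induce behaved after the drug and after the siRNA.

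As background, interferons of type I and type III bind receptors that act through the kinases JAK1 and TYK2. STAT proteins, STAT2 among them, are then phosphorylated and join IRF9 in a complex that binds the interferon-stimulated response element (ISRE) in promoters. Cytosolic sensors of RNA, such as IFIH1 (MDA5) and DDX58 (RIG-I), act upstream through MAVS and IRF3 to switch on interferon itself, and IRF3 and IRF1 can also induce part of the set without interferon. Transfected double-stranded RNA is a known trigger of these sensors. All 12 samples were transfected, and no untransfected sample is among them, so the effect of transfection itself on these genes was not tested. Between the siRNA pools, loss of FOXA1 and a difference in the sequences of the pools cannot be told apart, because 1 pool against FOXA1 was used.

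Many promoters of the set hold the letters of the known response element. Promoter sequences of RefSeq on GRCh38.p14, running from 250 bases before to 50 bases after the start of transcription, were found for 37 of the 46 genes. No entry was found for IRF7, OAS2, OASL, IFIT2, IFITM2, MX2, USP18, TRIM22 and LAMP3. The ISRE core was searched on both strands as GAAANNGAAA. It was present for 25 of the 37 genes (67.6%), and in 30 of their 50 promoters (60%), compared with 3.57% of 34796 distinct promoters of the same length. The gamma-activated sequence, a response element of interferon gamma, was searched as TTCNNNGAA and was present for 13 of the 37 genes (35.1%), and in 15 of their 50 promoters (30%), compared with 7.67% of all promoters. For 8 genes both motifs were found, and in 5 of these (BST2, EPSTI1, IFI27, IFITM1 and MX1) a match of the one overlapped a match of the other. These are matches of letters and are not measurements of binding.

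The stretches below hold the ISRE cores, in capitals on either strand, with the bases between them and up to 20 bases on each side, and are written in the direction of transcription. The first 6 belong to genes that rose after lapatinib with both siRNA pools. They lie at chr2:162318685-162318863 on the minus strand (IFIH1), chr4:168318776-168318860 on the minus strand (DDX60), chr10:89327821-89327904 on the plus strand (IFIT3), chr3:122680790-122680838 on the plus strand (PARP14), chr7:93118086-93118135 on the minus strand (SAMD9) and chr1:27672256-27672368 on the minus strand (IFI6).
IFIH1: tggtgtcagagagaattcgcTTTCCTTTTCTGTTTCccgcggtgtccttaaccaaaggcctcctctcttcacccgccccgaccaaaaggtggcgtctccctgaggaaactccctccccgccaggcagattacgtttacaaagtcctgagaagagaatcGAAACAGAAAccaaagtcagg
DDX60: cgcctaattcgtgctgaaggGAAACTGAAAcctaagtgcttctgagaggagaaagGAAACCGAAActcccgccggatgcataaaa
IFIT3: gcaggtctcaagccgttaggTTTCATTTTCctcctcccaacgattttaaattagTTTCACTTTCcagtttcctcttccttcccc
PARP14: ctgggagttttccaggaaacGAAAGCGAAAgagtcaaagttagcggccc
SAMD9: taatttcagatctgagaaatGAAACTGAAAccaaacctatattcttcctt
IFI6: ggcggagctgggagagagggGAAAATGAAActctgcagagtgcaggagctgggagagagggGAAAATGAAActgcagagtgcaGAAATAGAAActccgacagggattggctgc

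The next 3 belong to genes that fell after lapatinib with at least 1 of the pools, and are shown because they hold the same core. They lie at chr1:1013364-1013419 on the plus strand (ISG15), chr12:112938311-112938473 on the plus strand (OAS3) and chr19:17405725-17405780 on the minus strand (BST2).
ISG15: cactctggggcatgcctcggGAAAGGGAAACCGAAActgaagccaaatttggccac
OAS3: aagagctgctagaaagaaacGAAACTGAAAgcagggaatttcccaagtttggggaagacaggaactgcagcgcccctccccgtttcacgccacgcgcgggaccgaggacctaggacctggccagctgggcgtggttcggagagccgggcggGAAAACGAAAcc
BST2: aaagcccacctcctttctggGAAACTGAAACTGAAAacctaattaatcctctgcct
Genes with the core and genes without it both rose. After lapatinib with NT siRNA, 9 of 19 tested genes with a core rose and 2 fell, and of 10 tested genes with a promoter but without a core 7 rose and 0 fell, where 29.9% of all tested genes rose and 28.6% fell. STAT2, IRF9, IRF1, OAS1, SAMD9L, HERC6 and SP110 were those 7.

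Totals of expected counts ranged from 25749578 to 32271850 per sample, and a count of 0 allows for up to 3 counts. That floor covers counting error alone, because PCR copies of a molecule are not independent reads. FOXA1, the target of the siRNA, was 172 to 184 TPM with NT siRNA and 24.6 to 33.4 TPM with FOXA1 siRNA in DMSO, and 252 to 268 TPM compared with 34.4 to 49.4 TPM in lapatinib. TPM is a level scaled by gene length and library size. Markers of the line were as labelled, with ERBB2 (HER2) at 2720 to 6100 TPM and ESR1, the estrogen receptor, under 1 TPM in every sample. Of 6 immune cell markers, PTPRC, CD3E, CD79A and NKG7 stayed under the count filter. The labels do not say whether the replicates were separate cultures, so p-values measure the spread between these samples, which may be technical.

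Most of the set was expressed at low levels. Mean TPM over the 12 samples was 10 or more for 10 genes, between 1 and 10 for 15 and under 1 for 21. The median over all 46 was 1.40 TPM, and over all tested genes it was 16.6 TPM. These sets are unlike, because the 46 include 9 genes that failed the count filter and the tested genes all passed it. The highest levels were those of IFITM2, IFITM3 and IFITM1, membrane proteins that block the entry of viruses. IFITM2 was 150.1, 163 and 144 TPM in the NT siRNA DMSO samples, and the 3 genes are similar in sequence, so reads may have been divided among them wrongly. The 9 genes that could not be tested were HERC5, CMPK2, IFI27, IFI44, IFI44L, EPSTI1, XAF1, RTP4 and LAMP3, of which none exceeded 8 counts or 0.80 TPM. Of the 37 tested genes, 28 had at least 10 counts in every sample. The other 9 could have passed the filter through the group where they were highest, so counts over the 37 are descriptions, and those of the more abundant members are given beside them. IFI27, IFI44L and RSAD2 belong to the genes that interferon is known to raise most, and RSAD2 was at 14 counts or fewer. The plot of levels orders all 46 genes.

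**Figure D1:**
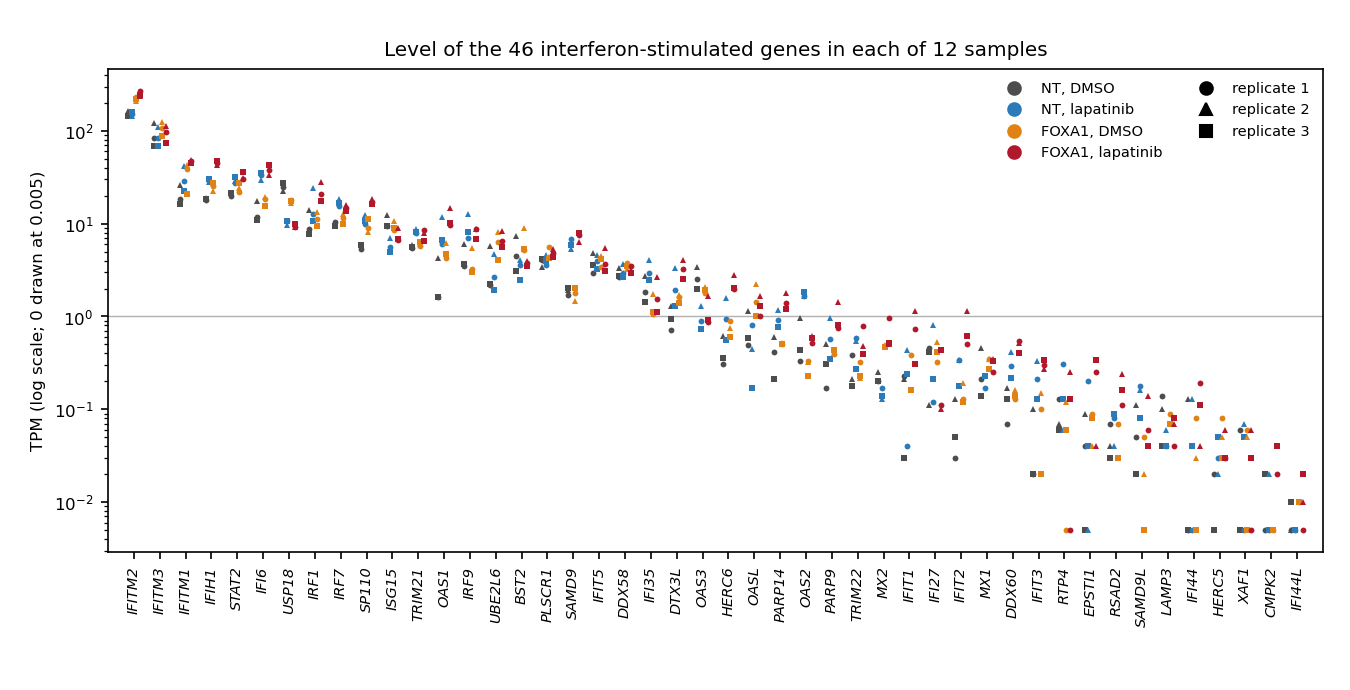
TPM (log scale) of the 46 interferon-stimulated genes in each of the 12 samples, ordered by mean, with colors for the 4 groups and marker shapes for the replicate numbers, and values of 0 drawn at 0.005. The grey line is 1 TPM, and 21 genes had a mean under it.

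Interferons themselves were at the limit of detection. Of 21 interferon genes (13 of the alpha family, IFNB1, IFNE, IFNK, IFNW1, IFNG, IL28A, IL28B and IL29), 15 had 0 counts in all 12 samples. The highest count of any of them was 2, and their sum per sample was 0 to 3 counts, at or under the floor in every group. Receptors were present. IFNAR1 and IFNAR2, the receptor of type I interferon, were at least 32.3 and 25 TPM in every sample, and the 6 receptor genes together summed to 146 to 166 TPM with NT siRNA in DMSO. IFNGR1, IFNGR2 and IL10RB ranged over 29.1 to 41.2, 14.4 to 36.7 and 34.5 to 76.7 TPM, and IL28RA, the specific chain for type III interferon, over 0.27 to 1.37 TPM. After lapatinib 5 of the 6 receptor genes rose with either pool, with IFNGR1 as the exception, while 29.9% of all tested genes rose with NT siRNA and 28.5% with FOXA1 siRNA. IFNAR1 rose by 0.58 ± 0.05 (log2, SE) with NT siRNA and by 0.74 ± 0.06 with FOXA1 siRNA, and FOXA1 siRNA raised it by 0.36 ± 0.05 in DMSO. Interferon transcripts were thus at the floor in all 4 groups at the 1 time sampled, 24 h after drug or DMSO was added. Each group had received siRNA, and no earlier time was measured.

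Lapatinib raised many genes of the set when the cells carried NT siRNA. Of the 37 tested genes, 19 rose (51.4%) and 3 fell (8.11%) at an adjusted p under 0.05 in the quasi-likelihood test of edgeR, with p-values adjusted over all tested genes by Benjamini-Hochberg. Among all tested genes, 29.9% rose and 28.6% fell. At changes of 1 or more on the log2 scale, 13 genes of the set rose and 2 fell, compared with 6.62% and 7.07% of all tested genes. The median log2 fold change of the set was 0.70, and that of all tested genes was 0.03. Of the 25 members with a mean level of at least 1 TPM, 13 rose and 3 fell, compared with 32.3% and 31.6% of all genes at that level, and the median was 0.58.

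By role, lapatinib with NT siRNA raised 4 of 4 transcription factors, 2 of 3 helicases, 2 of 4 OAS genes, 2 of 4 IFIT genes, 1 of 4 membrane restriction factors, 0 of 2 MX genes, 1 of 4 tested genes of ISG15 conjugation, 3 of 5 ubiquitin and ADP-ribose ligases, 2 of 3 nucleotide and SAMD9 effectors, 1 of 2 IFI genes and 1 of 2 other effectors. It lowered 1 OAS gene and 2 genes of ISG15 conjugation. With FOXA1 siRNA the same roles had 4, 2, 2, 3, 1, 0, 1, 5, 3, 1 and 1 rises, and 1 membrane restriction factor and 1 gene of ISG15 conjugation fell. Several of these shares are near the 29.9% and 28.5% of all tested genes that rose, and the roles hold few genes.

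Each of the 4 transcription factors rose. STAT2, a subunit of the ISRE-binding complex, was 20.1, 21.5 and 21.2 TPM in DMSO and 27.4, 28.6 and 32.2 TPM in lapatinib with NT siRNA. IRF9, the DNA-binding subunit of that complex, was 3.46, 6.09 and 3.63 TPM in DMSO and 7.01, 12.8 and 8.18 TPM in lapatinib. In both genes every lapatinib sample lay above every DMSO sample, with log2 fold changes of 0.54 ± 0.08 (SE) for STAT2 and 1.38 ± 0.33 for IRF9. IRF7, which drives interferon alpha genes, rose from 10.4, 9.67 and 9.54 TPM to 15.6, 18.3 and 16.6 TPM, a log2 fold change of 0.83 ± 0.09. IRF1, which can act without interferon, was 8.68, 13.9 and 7.79 TPM in DMSO and 12.7, 24.5 and 10.6 TPM in lapatinib. Its groups overlapped, and its change of 0.80 ± 0.29 had an adjusted p of 0.0399 by edgeR and 0.0760 by DESeq2.

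Sensors and the OAS family, whose enzymes make the second messenger that activates RNase L, moved unevenly. IFIH1, the sensor of long double-stranded RNA, was 18.0, 19.1 and 18.2 TPM in DMSO and 29.0, 28.0 and 30.1 TPM in lapatinib, and rose by 0.75 ± 0.06 on the log2 scale. DDX58, the sensor of short RNA with a 5′ triphosphate, was 2.67, 3.35 and 2.72 TPM in DMSO and 2.94, 3.65 and 2.65 TPM in lapatinib, and was not called. DDX60, a related helicase, rose by 1.40 ± 0.37 from 0.07 to 0.17 TPM to 0.22 to 0.41 TPM. OAS1 was 1.61, 4.31 and 1.61 TPM in DMSO and 5.98, 11.8 and 6.67 TPM in lapatinib, and OAS2 was 0.33, 0.96 and 0.43 TPM and 1.67, 1.67 and 1.84 TPM. Both rose without overlap, by 1.78 ± 0.41 and 1.79 ± 0.33. OAS3 moved the other way, from 2.54, 3.4 and 1.96 TPM to 0.89, 1.30 and 0.74 TPM, a log2 fold change of -1.12 ± 0.21.

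Several effector genes rose. IFIT3 and IFIT2, of a family that blocks the translation of viral RNA, had log2 fold changes of 2.12 ± 0.66 and 2.02 ± 0.51, at 1, 4 and 1 counts in DMSO and 7, 13 and 5 counts in lapatinib for IFIT3 and at 2, 7 and 3 counts and 16, 19 and 10 counts for IFIT2. These counts are small, and DESeq2 gave IFIT3 an adjusted p of 0.0678. SAMD9 and SAMD9L, restriction factors of poxviruses that slow translation, rose by 1.72 ± 0.12 and 1.85 ± 0.48. SAMD9 stood on firmer counts, at 1.69, 1.94 and 2.02 TPM in DMSO and 6.88, 5.32 and 5.87 TPM in lapatinib, while SAMD9L was at 2, 4 and 2 counts and 10, 9 and 8 counts and had an adjusted p of 0.0625 by DESeq2. IFIT3 and SAMD9L reached 10 counts, the minimum for testing, only in lapatinib. IFI6, a membrane protein that restricts flaviviruses, was 11.7, 17.3 and 11 TPM and 33.6, 29.6 and 35.1 TPM, a log2 fold change of 1.34 ± 0.17 with no overlap. The ADP-ribosyltransferase PARP14 rose by 1.25 ± 0.32, and the ubiquitin ligases DTX3L, HERC6 and TRIM21 by 1.23 ± 0.35, 1.30 ± 0.41 and 0.58 ± 0.10, HERC6 with overlapping groups. SP110, a protein of nuclear bodies, was 5.38, 5.83 and 5.87 TPM and 9.93, 12.4 and 10.7 TPM, and rose by 1.06 ± 0.11. In the model blocked by replicate number 22 genes rose and 3 fell (33.8% and 32.1% of all tested genes), and TRIM22 (0.84 ± 0.29), PARP9 (0.67 ± 0.25) and IFI35 (0.71 ± 0.19) rose in addition.

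The IFITM genes, the most abundant of the set, responded unevenly. IFITM1 was 18.5, 25.9 and 16.4 TPM in DMSO and 28.6, 41.3 and 22.2 TPM in lapatinib with NT siRNA, and rose by 0.64 ± 0.24 with overlapping groups. IFITM2 was 150.9, 144 and 158 TPM in lapatinib and overlapped the DMSO samples. IFITM3 was 82.9, 122 and 68.7 TPM in DMSO and 84.6, 109 and 68.0 TPM in lapatinib. Neither IFITM2 (0.03 ± 0.07) nor IFITM3 (-0.02 ± 0.22) was called. BST2, which holds budding virus at the cell surface, was 4.43, 7.42 and 3.12 TPM and 3.59, 4.08 and 2.47 TPM and was not called either (-0.52 ± 0.33).

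ISG15 and its protease fell. ISG15, a ubiquitin-like protein that is attached to other proteins, was 9.41, 12.4 and 9.38 TPM in DMSO and 5.64, 7.03 and 4.99 TPM in lapatinib, a log2 fold change of -0.78 ± 0.19. USP18, which removes ISG15 and blocks signalling at the type I receptor, was 24.7, 22.3 and 27.6 TPM in DMSO and 10.7, 9.69 and 10.6 TPM in lapatinib. Its log2 fold change was -1.22 ± 0.10, and no lapatinib sample reached the lowest DMSO sample. USP18 has a near copy in the genome, so its counts are uncertain to that extent. UBE2L6, the enzyme that conjugates ISG15, and the GTPases MX1 and MX2 were not called (log2 fold changes -0.09, -0.31 and -0.04).

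**Figure D2:**
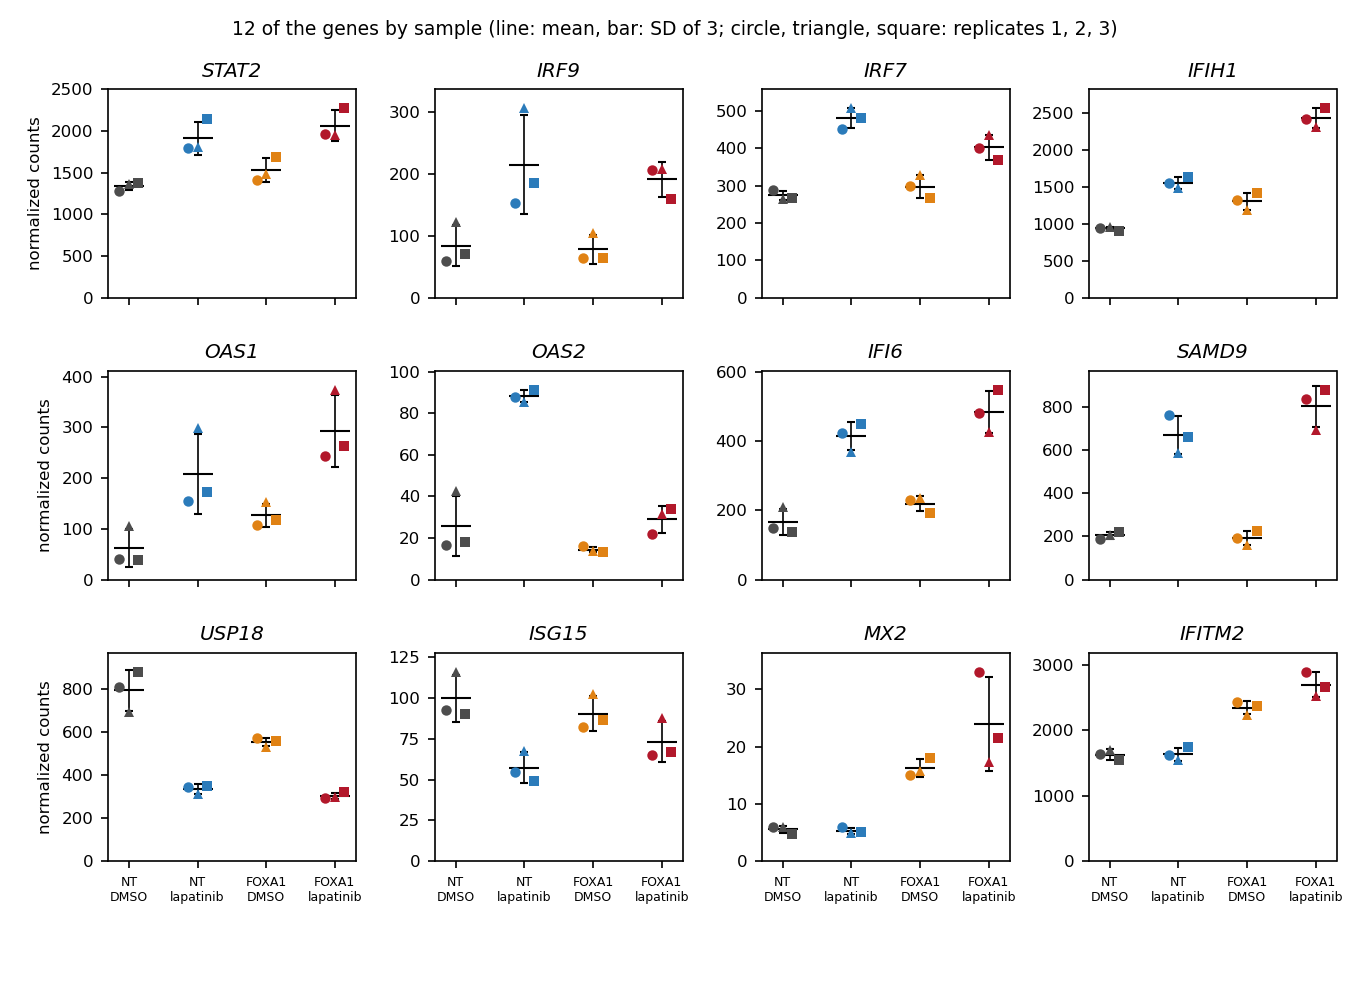
Normalized counts of 12 of the genes in each sample, with the mean and SD of 3 replicates per group, colors for the groups and marker shapes for replicates 1 to 3. STAT2, IRF9, IRF7, IFIH1, OAS1, OAS2, IFI6 and SAMD9 were higher in each NT lapatinib sample than in each NT DMSO sample, USP18 and ISG15 were lower, and MX2 and IFITM2 were higher in each FOXA1 siRNA sample than in each NT sample.

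Lapatinib also raised many genes of the set in cells with FOXA1 siRNA, in a comparison that shares no sample with the first. By the same edgeR test, 23 of 37 tested genes rose (62.2%) and 2 fell (5.41%), while 28.5% of all tested genes rose and 28.7% fell. At changes of 1 or more on the log2 scale, 18 rose and 0 fell, compared with 4.96% and 5.13% of all tested genes. The median log2 fold change was 0.90, with 0.01 over all tested genes. Among the 25 genes with a mean of at least 1 TPM, 13 rose and 2 fell (30.7% and 31.5% of all genes at that level) and the median was 0.44. In a model that kept the replicate number as a block, 24 genes rose and 4 fell (33.9% and 33.6% of all tested genes), with IFITM1 added to the rises and OAS3 and IFITM3 to the falls. Without replicate 1 or 3 of FOXA1 siRNA in lapatinib, 1 gene fell.

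The rises were shared between the pools. Of the 19 genes that rose with NT siRNA, 18 also rose with FOXA1 siRNA, which is 94.7% of the former and 78.3% of the latter, and over all tested genes these shares were 76.3% and 80%. IFITM1 was the exception, with a log2 fold change of 0.48 ± 0.22 and an adjusted p of 0.1 by edgeR, and with the block it rose too (0.51 ± 0.16, adjusted p = 0.0165). IFIT1, IFITM2, PARP9, RSAD2 and TRIM22 rose in addition, IFIT1 with overlapping groups. SAMD9 was 1.78, 1.48 and 2.04 TPM in DMSO and 7.54, 6.28 and 7.85 TPM in lapatinib, a log2 fold change of 2.07 ± 0.14. IFIT2 rose by 2.41 ± 0.40 from 7, 11 and 7 counts to 28, 67 and 34 counts, and RSAD2 (viperin), which makes a chain terminator of viral RNA synthesis, by 1.88 ± 0.51 from 4, 2 and 2 counts to 6, 14 and 9 counts, with an adjusted p of 0.0586 by DESeq2. RSAD2 reached the count minimum for testing only in replicate 2 of FOXA1 siRNA in lapatinib, the group where it was higher. Its value is therefore a description. DDX60 rose by 1.78 ± 0.23 from 0.13 to 0.16 TPM to 0.40 to 0.54 TPM. HERC6 was 0.89, 0.76 and 0.60 TPM and 1.98, 2.78 and 2.04 TPM (1.63 ± 0.20), PARP14 rose by 1.56 ± 0.17, DTX3L by 1.08 ± 0.18, IFI6 by 1.15 ± 0.12 and IFIH1 by 0.90 ± 0.08. These groups did not overlap. SAMD9L had 3 counts in all 3 DMSO samples together and 17 in lapatinib, a ratio of 5.8 with a 95% counting interval of 1.68 to 30.9. That interval leaves out the spread between replicates, and DESeq2 gave SAMD9L an adjusted p of 0.0811.

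The transcription factors again rose together. STAT2 was 22.0, 24.1 and 27.2 TPM in DMSO and 30.3, 30.7 and 35.6 TPM in lapatinib with FOXA1 siRNA, and IRF9 was 3.28, 5.48 and 2.99 TPM and 8.79, 8.69 and 6.87 TPM. IRF1 was 11.3, 13.2 and 9.36 TPM and 21.0, 28.3 and 17.5 TPM, and IRF7 was 11.5, 12.6 and 9.84 TPM and 14.9, 16.0 and 13.6 TPM. No lapatinib sample overlapped a DMSO sample in any of the 4, with log2 fold changes of 0.44 ± 0.09, 1.30 ± 0.21, 1.05 ± 0.20 and 0.44 ± 0.11. USP18 fell here as well, from 18.0, 16.9 and 17.6 TPM to 9.09, 9.27 and 9.85 TPM (log2 fold change -0.86 ± 0.08). BST2 (tetherin) fell from 5.2, 8.88 and 5.29 TPM to 3.78, 3.92 and 3.49 TPM, by 0.76 ± 0.23 on the log2 scale. ISG15 was 8.58, 10.8 and 9.07 TPM and 6.72, 9.04 and 6.81 TPM, with overlapping groups and no call.

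**Figure D3:**
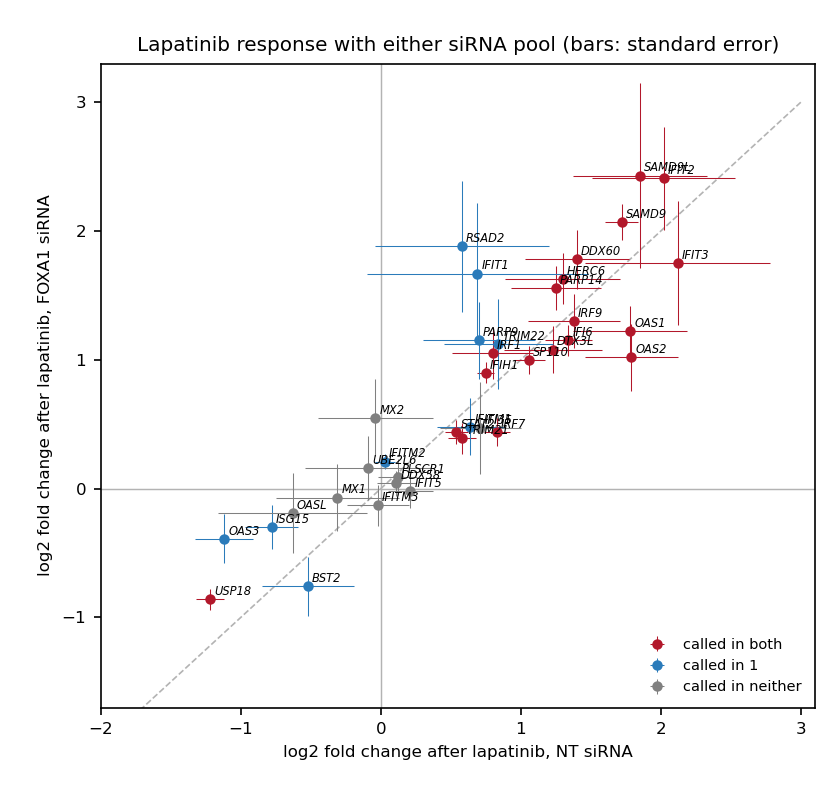
Log2 fold change after lapatinib of the 37 tested genes with NT siRNA (x axis) and with FOXA1 siRNA (y axis), bars giving the standard error, the dashed line equality, and colors whether a gene was called in both comparisons, 1 or neither. The comparisons share no sample. The 18 genes that rose with both pools lie in the upper right, and USP18 was the gene called lower in both.

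FOXA1 siRNA changed fewer genes of the set than lapatinib did. How many fewer depended on the block by replicate number. In DMSO, without the replicate block, 5 of 37 rose (13.5%) and 2 fell (5.41%), both below the 21% of all tested genes that rose and the 21% that fell. At changes of 1 or more on the log2 scale, 1 rose and 0 fell, compared with 4% and 2.8% of all tested genes. The median log2 fold change was 0.28, with -0.01 over all tested genes. Among the 25 genes with a mean of at least 1 TPM, 4 rose and 2 fell, compared with 22.7% and 23.3% of all genes at that level. The count of rises depended on replicate 2. Without replicate 2 of NT siRNA in DMSO, 13 rose. In the blocked model 14 rose (37.8%) and 3 fell (8.11%), compared with 29.3% and 30% of all tested genes. The share of rises was thus below that of all genes without the block and above it with the block. DESeq2 called 8 rises. Shares of all tested genes are not given for DESeq2 or for fits without a sample, so those counts have no background beside them. Without replicate 1 or 2 of NT siRNA in DMSO, or replicate 1 or 3 of FOXA1 siRNA in DMSO, 1 gene fell.

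MX2, a GTPase at the nuclear pore that restricts HIV, had the largest rise with FOXA1 siRNA, at a low level. It was 6, 6 and 5 counts with NT siRNA in DMSO and 15, 17 and 19 counts with FOXA1 siRNA, a log2 fold change of 1.54 ± 0.31 with no overlap. Its neighbour MX1, a cytoplasmic GTPase and a standard marker of the interferon response, was 11, 22 and 8 counts and 17, 20 and 14 counts and was not called (0.29 ± 0.41). DTX3L rose by 0.72 ± 0.22 from 0.72, 1.30 and 0.93 TPM to 1.64, 1.72 and 1.38 TPM, and SP110 by 0.70 ± 0.12 from 5.38, 5.83 and 5.87 TPM to 8.94, 8.05 and 11.2 TPM. IFITM2 rose by 0.53 ± 0.06, reaching 229, 212 and 223 TPM, and IFIH1 rose by 0.49 ± 0.07, reaching 25.4, 22.7 and 27.3 TPM. USP18 and OAS3 fell, by 0.51 ± 0.09 and 0.61 ± 0.19 on the log2 scale, in a comparison that has its control samples in common with that of lapatinib with NT siRNA. OAS3 was 1.78, 2.09 and 1.93 TPM with FOXA1 siRNA in DMSO. Of the 4 transcription factors 0 were called, with log2 fold changes between -0.10 and 0.20, although STAT2 passed with the block (adjusted p = 0.00469 by edgeR).

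The rises that the block added in DMSO, beside STAT2, were those of OAS1, OASL, IFITM1, IFITM3, BST2, UBE2L6, HERC6 and IFI6, and IFI35 was the added fall. OAS1 was 4.29, 6.21 and 4.69 TPM with FOXA1 siRNA, compared with 1.61, 4.31 and 1.61 TPM with NT siRNA, with replicate 2 of NT siRNA close to the FOXA1 siRNA samples. Its log2 fold change was 1.04 ± 0.37 with an adjusted p of 0.0526 by edgeR, and with the block 1.09 ± 0.19 with an adjusted p of 0.000649. OASL was 1.44, 2.25 and 1.01 TPM compared with 0.49, 1.14 and 0.59 TPM, and its values without and with the block were 1.11 ± 0.40 and 1.12 ± 0.23. UBE2L6 was 6.41, 8.16 and 4.02 TPM compared with 2.17, 5.78 and 2.22 TPM (0.88 ± 0.40 and 0.91 ± 0.18). IFITM1 was 39.2, 43.2 and 20.9 TPM compared with 18.5, 25.9 and 16.4 TPM (0.77 ± 0.27 and 0.74 ± 0.11). In each of these 4 genes the FOXA1 siRNA sample exceeded the NT siRNA sample of the same number in TPM in all 3 replicates.

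In lapatinib, FOXA1 siRNA raised 10 of the 37 genes (27%) and lowered 2 (5.41%), where 22.2% of all tested genes rose and 21.8% fell. Of changes of 1 or more on the log2 scale, 5 rose and 1 fell, compared with 4.48% and 3.9% of all tested genes. The median log2 fold change was 0.34, with -0.01 over all tested genes. Among the 25 genes with a mean of at least 1 TPM, 7 rose and 1 fell, compared with 23.8% of all genes at that level in each direction. With the block 19 rose (51.4%) and 3 fell (8.11%), compared with 30% and 30.6% of all tested genes. Without replicate 1 of NT siRNA in lapatinib 6 rose, and without replicate 2 of that group 16 rose, with no shares of all tested genes given for these fits. The falls were those of IRF7 and OAS2, and 1 gene fell when any sample except replicate 2 of FOXA1 siRNA in lapatinib was left out.

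MX2 again rose most, from 5, 5 and 5 counts to 32, 18 and 21 counts, a log2 fold change of 2.13 ± 0.38 with no overlap. OASL, a member of the OAS family without enzyme activity that assists DDX58, was 0.81, 0.45 and 0.17 TPM with NT siRNA and 1.01, 1.67 and 1.30 TPM with FOXA1 siRNA, and rose by 1.54 ± 0.43. IFIT2 rose by 1.41 ± 0.39, HERC6 by 1.15 ± 0.32 from 0.94, 1.57 and 0.56 TPM to 1.98, 2.78 and 2.04 TPM, and UBE2L6 by 1.12 ± 0.30 from 2.67, 4.68 and 1.91 TPM to 6.5, 8.25 and 5.59 TPM. None of these overlapped. OAS2 fell, from 1.67, 1.67 and 1.84 TPM with NT siRNA to 0.52, 0.62 and 0.59 TPM with FOXA1 siRNA, a log2 fold change of -1.60 ± 0.20. IFIH1 was 45.0, 42.7 and 47.1 TPM with FOXA1 siRNA and rose by 0.64 ± 0.06, IFITM2 was 269, 234 and 245 TPM and rose by 0.71 ± 0.07, and SP110 was 17.1, 18.5 and 16.2 TPM and rose by 0.64 ± 0.09. For these 3 genes the levels with both treatments were the highest of the 4 groups. IFITM1 (47.0, 48.5 and 44.6 TPM) and PARP14 (1.38, 1.80 and 1.21 TPM) rose as well, by 0.59 ± 0.19 and 0.66 ± 0.20. With the block, DDX60, DTX3L, IFI6, IFIT1, IRF1, OAS1, PARP9, SAMD9 and STAT2 rose and IFI35 fell in addition, IRF1 by 0.35 ± 0.07 and OAS1 by 0.50 ± 0.09. IRF7 fell by 0.26 ± 0.09, with an adjusted p of 0.0430 by edgeR and 0.0626 by DESeq2. IFIH1, IFITM2, MX2 and SP110 were the 4 genes that rose with FOXA1 siRNA in both drug conditions, which share no sample. MX2 reached the count minimum only with FOXA1 siRNA. The 4 genes are 80% of the 5 that rose in DMSO and 40% of the 10 that rose in lapatinib, and over all tested genes these shares were 69.6% and 66%.

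**Figure D4:**
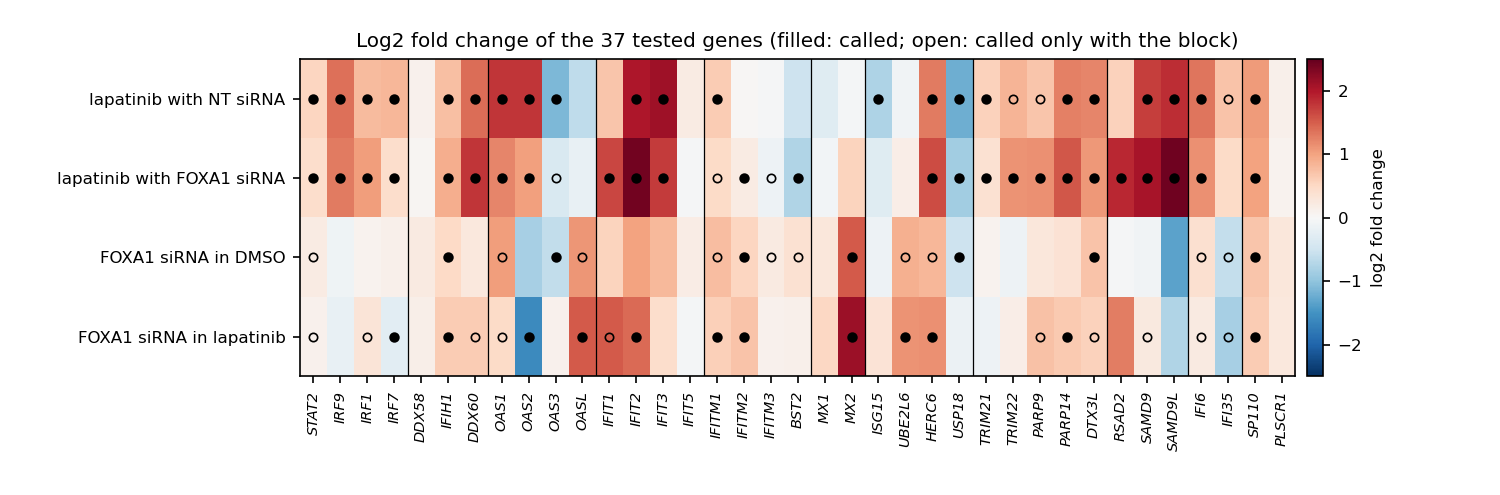
Log2 fold change of the 37 tested genes in the 4 comparisons, ordered by role with vertical lines between roles. Filled circles mark genes called by edgeR at an adjusted p under 0.05 and open circles those called only in the blocked model. Without the block, the lapatinib comparisons hold 19 and 23 rises and the FOXA1 siRNA comparisons 5 and 10. With the block these are 22 and 24, and 14 and 19.

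Drug and siRNA were set against each other directly, because the comparisons above share control samples. Cells with NT siRNA in lapatinib were tested against cells with FOXA1 siRNA in DMSO, so that the common control dropped out. A positive value is a higher level with the drug alone than with the siRNA alone. It does not give the size of either change, and a fall with the siRNA can add to it. This comparison was added after the values above were seen. Of 37 genes, 17 were higher with the drug alone (45.9%) and 8 with the siRNA alone (21.6%), while 31.8% of all tested genes were higher with the drug and 33% with the siRNA. The counts for higher with the siRNA were 5 without replicate 3 of NT siRNA in lapatinib or without replicate 2 of FOXA1 siRNA in DMSO.

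The 4 transcription factors and 13 of the other 33 members were higher with the drug alone. OAS2 differed by 2.60 ± 0.19 on the log2 scale, SAMD9 by 1.80 ± 0.14, IRF9 by 1.46 ± 0.30, DDX60 by 1.12 ± 0.30, IFI6 by 0.91 ± 0.12, IRF7 by 0.69 ± 0.10 and STAT2 by 0.32 ± 0.09. IFI35, a partner of the adaptor NMI, was called here only among the comparisons without a block, with a difference of 1.28 ± 0.28. Higher with the siRNA alone were OASL (-1.75 ± 0.46), MX2 (-1.59 ± 0.32), UBE2L6 (-0.98 ± 0.35), BST2 (-0.91 ± 0.27), USP18 (-0.72 ± 0.08), ISG15 (-0.66 ± 0.18), IFITM2 (-0.52 ± 0.06) and OAS3 (-0.52 ± 0.20), with overlapping groups for UBE2L6 and OAS3. Of these, USP18, ISG15 and OAS3 had fallen after lapatinib with NT siRNA, by log2 fold changes of -1.22, -0.78 and -1.12. Their changes after FOXA1 siRNA in DMSO were smaller, at -0.51, -0.13 and -0.61. SAMD9L had 27 counts with the drug alone and 3 with the siRNA alone over 3 samples each, a ratio of 9.82 with a 95% counting interval of 3.02 to 50.6. The interval leaves out the spread between replicates. SAMD9L reached the 10 counts needed for testing only with the drug alone, the group where it was higher, so its value is a description. IFIH1 and SP110 differed by 0.25 ± 0.08 and 0.35 ± 0.13 in favor of the drug.

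A difference in the lapatinib response between the pools was not called for any member. In the test of the interaction over all 12 samples, 0 genes were higher and 0 lower by edgeR, where 3.99% and 3.2% of all tested genes were called, and 3 members had an unadjusted p under 0.05. By DESeq2 also 0 were called, but it gave no adjusted p for low-count members such as IFIT1, IFIT2, MX2 and RSAD2. In the model blocked by replicate number, ISG15 (0.49), OAS3 (0.74) and USP18 (0.38) were called with a positive value, meaning that they fell less with FOXA1 siRNA, and IRF7 (-0.38) with a negative one, compared with 11.1% and 9.22% of all tested genes. Without replicate 2 of NT siRNA in DMSO, USP18 was called higher and OAS2 lower, and without all samples numbered 2 USP18 and OAS3 were called higher and OAS1 and OAS2 lower. The genes that were called after lapatinib with 1 pool and not with the other, such as IFIT1 and RSAD2 (interactions of 0.99 ± 1.07 and 1.31 ± 0.81), were therefore not shown to differ between the pools.

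In the rest of the pathway, counts of calls are set against the shares of all tested genes, which were 29.9% up and 28.6% down after lapatinib with NT siRNA, 28.5% and 28.7% with FOXA1 siRNA, and 21% each way after FOXA1 siRNA in DMSO. Of 12 JAK-STAT components and regulators outside the 46 genes, 4 rose and 4 fell after lapatinib with NT siRNA and 4 rose and 3 fell with FOXA1 siRNA, close to those shares. SOCS3, a feedback inhibitor of JAK kinases, was 2.21, 3.27 and 2.51 TPM with NT siRNA in DMSO and fell in all 4 comparisons, by 1.62 ± 0.19 after lapatinib and 1.68 ± 0.29 after FOXA1 siRNA on the log2 scale. JAK1 rose after lapatinib (0.55 ± 0.04 for NT siRNA, 0.53 ± 0.04 for FOXA1 siRNA). Of 24 nucleic acid sensors and adaptors, 18 were tested, and 6 rose and 5 fell after lapatinib with NT siRNA while 2 rose and 8 fell after FOXA1 siRNA in DMSO. With the block these were 8 and 5 for lapatinib and 3 and 9 for the siRNA. MAVS, the adaptor of IFIH1 and DDX58, rose after lapatinib by 0.85 ± 0.05, and TLR3, an endosomal sensor of double-stranded RNA, by 1.54 ± 0.38 at 4, 4 and 5 counts in DMSO and 10, 15 and 10 counts in lapatinib (adjusted p = 0.0654 by DESeq2), while IRF3 fell by 0.54 ± 0.07. For TLR3 with NT siRNA, only the lapatinib samples reached the 10 counts needed for testing. After FOXA1 siRNA in DMSO, TMEM173 (STING), the adaptor for cytosolic DNA, rose by 1.40 ± 0.13 and IKBKE, a kinase that phosphorylates IRF3, fell by 1.64 ± 0.09 on the log2 scale. Of 17 chemokines and NF-kB response genes 8 were tested. Among them 0 rose and 2 fell both after lapatinib with NT siRNA and after FOXA1 siRNA in DMSO, and with the block 1 rose and 4 fell after lapatinib (33.8% and 32.1% of all tested genes) and 0 rose and 6 fell after FOXA1 siRNA (29.3% and 30%). CXCL10, the chemokine most often read as an interferon response, was 0.37 to 0.74 TPM with NT siRNA in DMSO and was not called in any of the 4 comparisons.

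The samples numbered 2 stood apart in these genes. Of the 37 tested genes, 28 were highest in replicate 2 of NT siRNA in DMSO, and 23, 22 and 23 were highest in replicate 2 of NT siRNA in lapatinib, FOXA1 siRNA in DMSO and FOXA1 siRNA in lapatinib. The median deviation of the 37 genes from their group mean was 0.41, 0.25, 0.12 and 0.14 in these samples on the log2 scale, compared with -0.02 to 0.00 over all genes. For 14 genes (IRF9, IRF1, OAS1, OAS3, IFIT5, IFITM1, IFITM3, BST2, ISG15, UBE2L6, PARP9, PARP14, DTX3L and IFI35) replicate 2 was the highest sample in all 4 groups. The summed TPM of the chemokines and NF-kB response genes was also highest in replicate 2 of each group (188 compared with 122 and 130 with NT siRNA in DMSO), as was that of the immune cell markers (25.6 compared with 15.3 and 15.7). CD68, a lysosomal protein, made up most of the immune marker sum (24.5 of 25.6 TPM in that replicate 2) and rose after lapatinib with either pool (0.89 ± 0.19 and 0.65 ± 0.13), and the summed markers ranged over 15.3 to 25.6 TPM and 28.7 to 38.5 TPM with NT siRNA and over 21.9 to 29.4 TPM and 31.8 to 43.4 TPM with FOXA1 siRNA in DMSO and lapatinib. CD14 was at 0.83 TPM or less and PTPRC, which marks leukocytes, at 0.32 TPM or less in every sample. The part of these markers in the results was not tested. Leaving out the 4 samples numbered 2 gave 20 and 3 genes up and down after lapatinib with NT siRNA, 20 and 2 with FOXA1 siRNA, 14 and 2 after FOXA1 siRNA in DMSO and 15 and 3 in lapatinib. The shares of all tested genes without these samples are not given, so whether these counts exceed them is not shown.

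**Figure D5:**
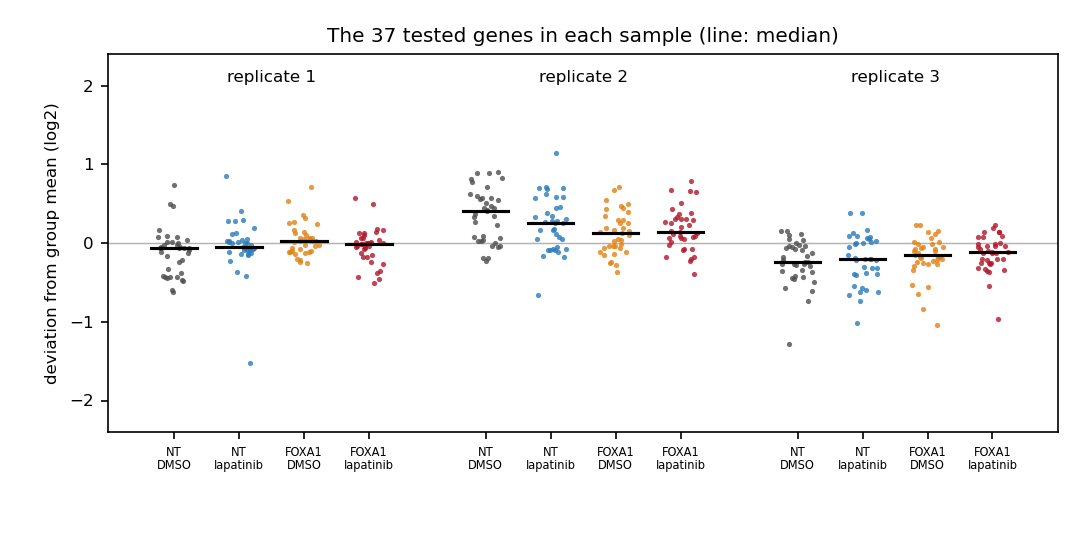
Deviation of each of the 37 tested genes from the mean of its group (log2 scale), by sample and grouped by replicate number, with a line at the median. Medians of the samples numbered 2 were 0.12 to 0.41, and those of the samples numbered 3 were -0.24 to -0.12.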

How the data were processed

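RNAseq of SKBR-3 cells was measured in 12 samples, 3 in each of 4 groups taken from the labels. The authors deposited an expected count per gene, an estimate that need not be whole, and TPM, which summed to 896833 to 939340 per sample over the listed genes. A deposited signal scaled to the upper quartile was used for no result. The methods name STAR, hg38 and Salmon, the deposited columns are those of RSEM, and the submitters' processing notes name RSEM, R 3.2.2 and DESeq2 1.12.3. The labels name both KAPA and TruSeq kits, and no source used here states strand use in counting. Replicates were not pooled.

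Expected counts (87.5% to 88.1% whole within 0.005) were rounded and tested in R 4.3.3 with edgeR 4.0.16 (TMM, glmQLFit, glmQLFTest), each comparison on its own 6 samples and the interaction on all 12. The 14012 genes reaching 10 counts in 1 or more samples were kept, and those at 0 throughout a comparison dropped out of it. A call was an adjusted p (Benjamini-Hochberg) under 0.05, and for a second rule a fold of 1 or more on the log2 scale as well. Normalized counts were divided by the TMM-adjusted library size and scaled to the mean library size before adjustment.

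The members and lists were chosen with earlier results of these data known. By rule, values in every sample were given for the 4 transcription factors, for at most 5 called members per comparison and direction, taken by size of change, and for the 3 members highest in TPM. From other lists, at most 3 called genes per direction were named. Of the other lists, 1 gene is not reported here. Values in every sample of further members, and CXCL10, were chosen after they were seen.

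Same-numbered samples deviated together from their group means (mean r 0.427, range 0.267 to 0.696, 18 pairs, 10812 genes). Over the 37 tested members mean r was 0.247 (-0.292 to 0.645). The value for other pairs (-0.199) is not separate evidence, because deviations from a group mean sum to 0. The numbers in the labels were therefore taken to pair the samples in the blocked model. The main calls and standard errors do not use this pairing. Blocked values are given for the members' counts they change and for named genes. Alternatives were normalization by RLE or upper quartile, DESeq2 1.42.0, other filters, a joint model, the block, stricter calls and leaving out each sample. Leaving out all samples numbered 2 and the comparison of drug with siRNA were added after the data were seen. Scripts were tested on simulated counts. Python 3.11.15, pandas 2.3.3, numpy 2.4.6, scipy 1.17.1 and matplotlib 3.10.9 were used for promoters and plots.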

Additional observations from a re-analysis of the deposited data

Results flagged for a closer look

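Of 44 tested receptors, signalling components, sensors and NF-kB response genes outside the 46, the lapatinib response differed between the siRNA pools in 3, by the test of the interaction over all 12 samples with edgeR and Benjamini-Hochberg adjustment. The signs were 2 positive and 1 negative, near the 3.99% and 3.2% of all tested genes, with 4 and 1 by DESeq2, which added PTPN11 and TICAM1, and 10 and 3 in the model blocked by replicate number (11.1% and 9.22% of all tested genes). IL28RA, a receptor chain for type III interferon, rose by 1.92 ± 0.19 (log2) with FOXA1 siRNA and by 0.93 ± 0.21 with NT siRNA, a difference of 1.0 ± 0.26. TRIM25, the ubiquitin ligase that activates DDX58, rose by 0.26 ± 0.05 with NT siRNA and had a change of -0.08 ± 0.04 with FOXA1 siRNA, a difference of -0.32 ± 0.06. BIRC3, an inhibitor of apoptosis and target of NF-kB, fell with NT siRNA (-0.68 ± 0.23) and rose with FOXA1 siRNA (0.73 ± 0.23), a difference of 1.42 ± 0.32.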

How the results depend on the processing

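Of 1586 values of named genes under alternative settings, for 130 results, 1471 kept their direction and call, 60 gained and 55 lost the call, and 0 reversed. The replicate block gave 14 genes of the set higher after FOXA1 siRNA in DMSO and 19 in lapatinib, 4 lower after lapatinib with FOXA1 siRNA, and 3 higher and 1 lower for the interaction, and moved no other count by over 1.5 times. The cause of the changes below was not tested. At an adjusted p under 0.01 the genes called higher and lower were 12 higher after lapatinib with NT siRNA, 1 lower after FOXA1 siRNA in DMSO, 4 and 1 after FOXA1 siRNA in lapatinib, 14 and 1 after lapatinib with FOXA1 siRNA, and 9 and 4 for drug against siRNA. With a minimum change of 1 on the log2 scale these were 1 and 0 after FOXA1 siRNA in DMSO, 5 and 1 in lapatinib, 0 lower after lapatinib with FOXA1 siRNA, and 6 and 2 for drug against siRNA. DESeq2 called 8 higher after FOXA1 siRNA in DMSO, and DESeq2, upper-quartile normalization and no filter each called 1 lower after FOXA1 siRNA in lapatinib. With at least 10 counts in every sample, which drops low genes, the median after lapatinib with FOXA1 siRNA was 0.47. Leaving out samples gave 14 to 20 genes higher and 3 lower after lapatinib with NT siRNA (median 0.56 to 0.82), 4 to 14 and 1 to 2 after FOXA1 siRNA in DMSO (0.16 to 0.51), 6 to 16 and 1 to 3 in lapatinib (0.25 to 0.54), 18 to 23 and 1 to 3 after lapatinib with FOXA1 siRNA (0.75 to 0.96), 12 to 16 and 5 to 10 for drug against siRNA (0.22 to 0.49), and 0 to 2 and 0 to 2 for the interaction (-0.02 to 0.27). Of these settings, shares of all tested genes are given only for the block and the minimum change, so the other counts have no background beside them. Low counts limit the 9 tested genes that fell under 10 counts in at least 1 sample.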
